A study of Mus musculus with 10 samples.

Results

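The 27 genes described here encode enzymes of cholesterol synthesis, proteins that take up and move sterols, and the SREBP regulators of the pathway. They were chosen by pathway, and each was found through the RefSeq accessions of the array probes. All 27 had at least 1 probe, and they held 37 of the 55681 gene probes and 27 of the 19752 gene symbols that could be named. The 10 genes with several probes were represented by the probe with the brightest signal.

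RNA was measured in 10 samples on single-colour Agilent mouse arrays, in 5 groups of 2. The muscle samples were from male mice on the C57BL/6J background: wild type without treatment, hSA::Fv2E-PERK transgenic injected with vehicle, and the same transgenic genotype injected with AP20187 at 1 ng/g. The other samples were C2C12 cells, a mouse myoblast line, carrying Fv2E-PERK, kept in 2% horse serum for 3 days to differentiate and then given ethanol vehicle or 100 nM AP20187. Injected mice and treated cells were collected after 12 h. Fv2E-PERK is the kinase PERK fused to domains that the small molecule AP20187 brings together, which starts the integrated stress response. hSA is the usual name of the human skeletal actin promoter, which is active in muscle fibres and not in the other cells of a muscle. No wild type mice given AP20187 and no C2C12 cells without the transgene are in the design. The labels give neither the age of the mice nor which muscle was taken, and they do not say that each array is 1 animal or 1 culture, so p-values measure the spread between arrays, which may be technical.

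Cells build cholesterol from acetyl-CoA through mevalonate, isoprenoids and squalene to lanosterol, and then through a series of sterol intermediates. The transcription factors SREBP, encoded by Srebf1 and Srebf2, switch on these genes when sterols in the endoplasmic reticulum run low: SCAP escorts SREBP to the Golgi for cleavage, and the INSIG proteins hold the complex back when sterols are plentiful. Srebf2 is known mainly for the sterol genes and Srebf1 mainly for the fatty acid genes, and skeletal muscle makes less cholesterol than liver.

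Levels below are log2 signals relative to the 75th percentile of their own array, so that 0 is the brightness of that percentile. A level of 1 probe cannot be set against that of another probe. Between 41.0% and 53.1% of the gene spots of an array were well above background, and no gene spot was saturated. Scanner outlier flags, whose spots were left out, took at most 0.376% of the spots on 8 arrays but 2.00% and 2.37% on the C2C12 AP20187 arrays. The 10 muscle fibre markers examined were all above background on every muscle array, and so were the 8 to 10 of them that had an unflagged spot on a C2C12 array. The 13 integrated stress response genes examined include Vldlr, which is also a member here. Of them, 10 were higher and 1, Vldlr, lower in vehicle transgenic than in wild type muscle, beside 25.7% and 12.6% of all genes. With AP20187, 9 rose in transgenic muscle, beside 14.3% of all genes, and 3 of 11 tested rose in C2C12, beside 0.316%. The wild type arrays carry another slide and scan number than the transgenic arrays, and the C2C12 arrays a further scan. The headers give the C2C12 arrays the slide number of the transgenic arrays, and the array identifiers of 2 vehicle transgenic arrays recur on 1 vehicle and 1 AP20187 array of C2C12, so the slide numbers are uncertain. Genotype, injection and scan therefore cannot be told apart in comparisons with wild type muscle, nor can tissue and scan between muscle and C2C12. AP20187 and vehicle arrays of 1 source were in the same scan.

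The promoters of 5 members that the results turn on are shown first. RefSeq windows of 300 bases, 250 before and 50 after an annotated start, were on hand for 22 members in build GRCm38.p6. Both strands were searched for 4 motifs: TCACNCCAC, close to the sterol regulatory element bound by SREBP; CACGTG, the E-box that SREBP and other factors bind; CCAAT, the site of the SREBP partner NF-Y; and TGATGNAA, the composite element bound by ATF4 and its partners. The 250 bases before the start are printed in the gene's own direction, with every match in capitals and no match overlapping another. Hmgcs1, which makes HMG-CoA, was the 1 member with TCACNCCAC, beginning 137 bases before the start. Mvd and Msmo1 are shown because they were higher in both steps from wild type to AP20187-treated muscle, Hsd17b7 because its response differed between muscle and C2C12, and Insig2 because it fell with AP20187. The window of Hmgcs1 is chr13:119690101-119690350 on the plus strand. The other 4 lie on the minus strand: Mvd at chr8:122443423-122443672, Msmo1 at chr8:64733579-64733828, Hsd17b7 at chr1:169969206-169969455 and Insig2 at chr1:121332590-121332839.
Hmgcs1: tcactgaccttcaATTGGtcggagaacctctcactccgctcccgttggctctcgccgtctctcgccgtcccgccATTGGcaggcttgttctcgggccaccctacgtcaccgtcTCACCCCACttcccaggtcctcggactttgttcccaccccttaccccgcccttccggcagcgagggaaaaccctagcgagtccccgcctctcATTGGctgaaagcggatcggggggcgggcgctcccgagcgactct
Mvd: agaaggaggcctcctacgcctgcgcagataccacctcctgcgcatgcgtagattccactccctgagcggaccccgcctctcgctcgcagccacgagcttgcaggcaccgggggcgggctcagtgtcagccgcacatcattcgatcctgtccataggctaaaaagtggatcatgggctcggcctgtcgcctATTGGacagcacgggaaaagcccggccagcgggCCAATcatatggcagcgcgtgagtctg
Msmo1: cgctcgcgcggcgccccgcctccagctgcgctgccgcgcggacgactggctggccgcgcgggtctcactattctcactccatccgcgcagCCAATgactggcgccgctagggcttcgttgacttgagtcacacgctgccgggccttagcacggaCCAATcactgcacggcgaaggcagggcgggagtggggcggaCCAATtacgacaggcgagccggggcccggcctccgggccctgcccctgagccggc
Hsd17b7: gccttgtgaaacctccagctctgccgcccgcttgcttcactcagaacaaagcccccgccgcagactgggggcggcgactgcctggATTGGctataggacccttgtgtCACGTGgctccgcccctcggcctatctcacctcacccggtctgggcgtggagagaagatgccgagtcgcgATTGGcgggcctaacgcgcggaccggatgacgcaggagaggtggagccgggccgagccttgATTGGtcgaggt
Insig2: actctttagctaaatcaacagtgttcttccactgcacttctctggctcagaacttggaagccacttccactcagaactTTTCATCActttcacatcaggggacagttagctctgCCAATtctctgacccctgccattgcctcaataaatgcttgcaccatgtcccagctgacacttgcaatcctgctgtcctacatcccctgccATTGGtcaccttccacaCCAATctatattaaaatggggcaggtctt
Matches to CCAAT, or ATTGG when read on the other strand, stand 60 and 27 bases before the Mvd start and 160, 96 and 55 bases before that of Msmo1. Hsd17b7 has CACGTG at 143 bases, and Insig2 has TGATGNAA at 172 bases, here as TTTCATCA on the other strand. The Insig2 window shown is 1 of 3 for that gene. Another has TGATGNAA 178 bases before its own start, and the last has no match before its start. Which start is used in muscle or C2C12 was not tested.

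Over all 31 windows of members, CCAAT was in 67.7%, against 37.4% of the 32851 windows of all genes, and it was found in 20 of the 22 members. CACGTG was in 19.4% of the member windows against 7.15% of all, in Hsd17b7, Sc5d, Dhcr7, Scap and Insig1. TGATGNAA was in 12.9% against 3.97%, in Idi1, Vldlr and Insig2, and TCACNCCAC in 3.23% against 1.24%. Windows of 1 gene can overlap, and a match describes the letters only.

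Vehicle-injected transgenic muscle carried more mRNA for several synthesis enzymes and for Srebf1 than wild type muscle did, and less for Npc1 and Vldlr. Of the 26 members tested, 7 were higher and 4 lower at an adjusted p under 0.05, while 38.3% of all 13543 genes tested passed, 25.7% higher and 12.6% lower. The members' share was thus near that of all genes. Their median log2 change was 0.23, against 0.09 for all genes. Only Srebf1, Npc1, Mvd, Ebp and Vldlr passed under every alternative run. Srebf1 moved farthest up, 2.69-fold (log2 change 1.43 ± 0.14 SE, adjusted p = 0.000453), and Npc1 farthest down, 2.68-fold (-1.42 ± 0.19, adjusted p = 0.00112). Without transgenic vehicle replicate 2, 7 members and 3342 of all genes passed, where 5184 of all genes had passed with it.

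AP20187 in transgenic muscle divided the same genes. Msmo1, Npc1, Hsd17b7 and Mvd rose, while Srebf1, Insig2, Tm7sf2, Dhcr7, Idi1, Ebp, Fdps and Mvk fell. These 4 and 8 of 26 compare with 29.3% of all genes passing, 14.3% higher and 15.0% lower. The median change of the members, -0.13, was close to the -0.11 of all genes. Leaving out any transgenic array lowered the count of members and that of all genes, from 3964: without vehicle replicate 1 or 2, 6 or 3 members and 2940 or 1869 of all genes passed, and without AP20187 replicate 1 or 2, 6 or 7 members and 2325 or 2583 of all genes. Insig2, Tm7sf2 and Srebf1 passed under every alternative run.

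Setting AP20187-treated transgenic against wild type muscle, which shares its arrays with both comparisons above, 5 members were higher and 7 lower of 26, beside 52.2% of all genes, 29.6% higher and 22.6% lower. The higher ones were Msmo1, Mvd, Fdft1, Insig1 and Srebf1. The lower ones were Tm7sf2, Dhcr7, Acat2, Fdps, Npc1, Insig2 and Vldlr. Without AP20187 replicate 1 the count was 7, with 6017 of all genes in place of 7071.

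**Figure D1:**
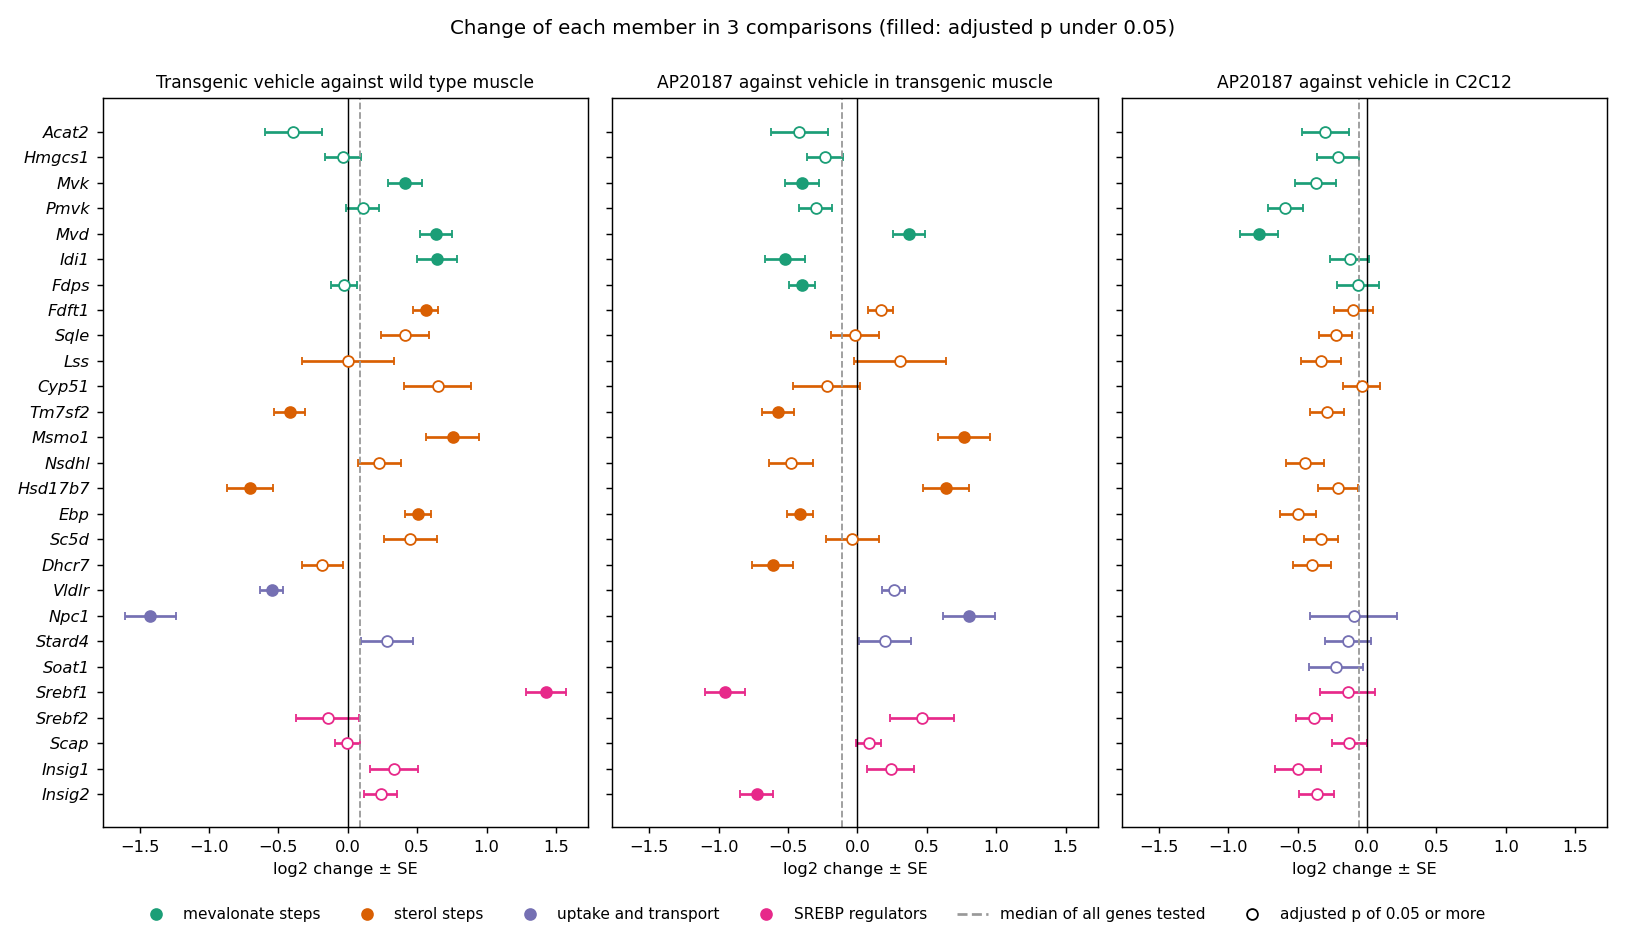
The log2 change ± SE of each member (rows, coloured by role) is plotted for transgenic vehicle against wild type muscle, AP20187 against vehicle in transgenic muscle, and AP20187 against vehicle in C2C12, with 2 arrays a group; filled points have an adjusted p under 0.05 and the dashed line is the median of all genes tested. In muscle the points lie on both sides of 0, while all 25 members tested in C2C12 lie below 0 and only Mvd is filled.

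Of the mevalonate genes, Mvd alone was higher in both steps. Mvd, the decarboxylase that makes isopentenyl diphosphate, read 0.21 and 0.14 in wild type, 0.88 and 0.74 in vehicle transgenic and 1.26 and 1.11 in AP20187-treated transgenic muscle. The 3 groups did not overlap and stood in that order. The vehicle group exceeded wild type 1.56-fold (0.64 ± 0.11, adjusted p = 0.00420) and AP20187 added a further 1.30-fold (0.37 ± 0.11, adjusted p = 0.0442), which gave 2.02-fold over wild type (1.01 ± 0.11, adjusted p = 0.000317). The AP20187 step passed under 6 of 12 other settings, and not in the fit of those 2 groups alone. It was also lost with any 1 of the 6 muscle arrays left out, and over all alternatives ran from 0.30 to 0.45.

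Idi1, which converts isopentenyl diphosphate to its isomer, rose and came back. Its levels were 0.67 and 0.87 in wild type, 1.32 and 1.52 with vehicle and 0.74 and 1.05 with AP20187. Both vehicle arrays lay above the other 4, and the AP20187 arrays overlapped wild type. The difference from wild type was 0.65 ± 0.14 (adjusted p = 0.0106) and AP20187 lowered it by 0.52 ± 0.14 (adjusted p = 0.0312). This fall passed under 9 of 12 other settings, and over all alternatives ran from -0.68 to -0.37.

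Fdps, the synthase of farnesyl diphosphate, held its level with vehicle at 3.92 and 4.03 beside 4.03 and 3.97 in wild type. It read 3.61 and 3.55 with AP20187, below the 4 other muscle arrays, a 1.32-fold drop (-0.40 ± 0.09, adjusted p = 0.0164). Mvk, the mevalonate kinase, was 1.33-fold higher with vehicle than in wild type and 1.32-fold lower after AP20187 than after vehicle (adjusted p = 0.0311 and 0.0430), so that treated and wild type muscle differed by 0.01 ± 0.12. The fall of Mvk with AP20187 no longer passed under 5 of 12 other settings or with any 1 of the 6 muscle arrays left out, and its difference between vehicle and wild type was lost under 5 of 12 settings and with 3 of the 6 arrays left out. Acat2, which condenses acetyl-CoA at the head of the pathway, passed, of the muscle comparisons, in that of AP20187-treated with wild type muscle, where it was 1.75-fold lower (-0.81 ± 0.21, adjusted p = 0.0126). Hmgcs1 and Pmvk, the phosphomevalonate kinase, did not pass in muscle, with changes between -0.30 and 0.11. Of the 7 mevalonate genes, all but Mvd had negative values with AP20187 against vehicle, from -0.23 for Hmgcs1 to -0.52 for Idi1, and 3 of them passed.

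**Figure D2:**
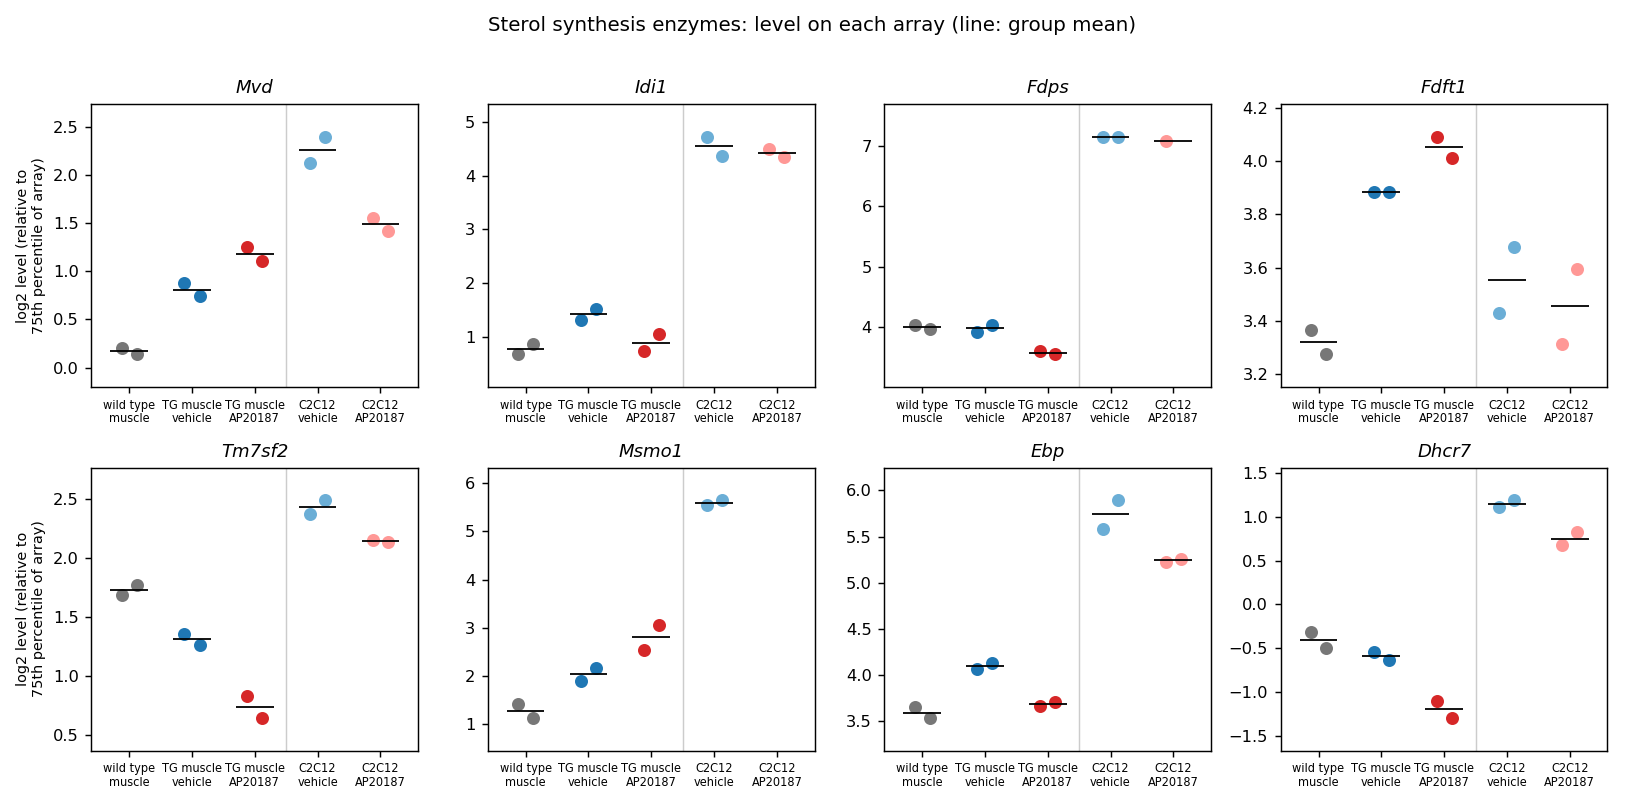
Each panel gives the log2 level of a synthesis enzyme on each of the 10 arrays (points), relative to the array's 75th percentile, with the group mean as a line; C2C12 groups stand right of the grey rule. Mvd and Msmo1 climb through the 3 muscle groups, Tm7sf2 descends from 1.68 and 1.77 to 0.83 and 0.64, and Msmo1 has no point for C2C12 with AP20187.

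Squalene and lanosterol mark the first sterol steps. Fdft1, the squalene synthase that commits farnesyl diphosphate to sterols, read 3.37 and 3.27 in wild type, 3.88 on both vehicle arrays and 4.09 and 4.01 with AP20187. Wild type arrays were lowest and treated arrays highest, without overlap. The difference between vehicle transgenic and wild type muscle passed (0.56 ± 0.09, adjusted p = 0.00259), but not with the mean over the probes of Fdft1 (limma, adjusted p = 0.0856). The AP20187 step, 0.17 ± 0.09, did not pass (adjusted p = 0.189). Sqle, the squalene epoxidase, Lss, which closes the ring to lanosterol, and Cyp51, which demethylates lanosterol, did not pass in any comparison within muscle. Sqle was 0.42 ± 0.17 and Cyp51 0.65 ± 0.24 above wild type with vehicle (adjusted p = 0.0940 and 0.0679), and Lss had the widest error of the members, ± 0.33.

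The enzymes after lanosterol went opposite ways. Msmo1, which oxidises methyl groups on the sterol ring, read 1.42 and 1.13 in wild type, 1.89 and 2.18 with vehicle and 2.55 and 3.06 with AP20187. As for Mvd, the 3 groups were ordered and did not overlap. Vehicle transgenic muscle was 1.69-fold above wild type (0.76 ± 0.19, adjusted p = 0.0165) and AP20187 added 1.70-fold (0.77 ± 0.19, adjusted p = 0.0209). Treated muscle was 2.88-fold above wild type (1.53 ± 0.19, adjusted p = 0.000478). The vehicle step of Msmo1 passed under 11 of 12 other settings and its AP20187 step under 10 of 12. Over all alternatives, with each array left out among them, these steps ran from 0.59 to 0.90 and from 0.51 to 1.02. Neither step passed under every alternative run.

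Tm7sf2, a sterol reductase of the inner nuclear and endoplasmic reticulum membranes, stepped down instead. Its levels were 1.68 and 1.77 in wild type, 1.36 and 1.26 with vehicle and 0.83 and 0.64 with AP20187, with the groups again apart. It was 0.42 ± 0.11 below wild type with vehicle (adjusted p = 0.0218), fell by 0.57 ± 0.11 with AP20187 (adjusted p = 0.00973) and ended 1.99-fold below wild type (adjusted p = 0.000317). A second Tm7sf2 probe gave -0.39, -0.64 and -1.03 for these differences. The vehicle difference passed under 12 of 12 other settings, but not with any 1 of the wild type or vehicle arrays left out. Over all alternatives it ran from -0.59 to -0.36.

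Dhcr7, the reductase of the last step to cholesterol, read -0.32 and -0.49 in wild type, -0.54 and -0.64 with vehicle and -1.10 and -1.30 with AP20187. The treated arrays were lowest by a gap larger than the spread within any group. Its drop with AP20187 was 1.53-fold (-0.61 ± 0.15, adjusted p = 0.0190), and the difference between vehicle and wild type, -0.18 ± 0.15, did not pass (adjusted p = 0.354).

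Ebp, the sterol isomerase, followed Idi1. It read 3.65 and 3.54 in wild type, 4.06 and 4.13 with vehicle and 3.66 and 3.71 with AP20187. Vehicle arrays were alone at the top, and treated arrays lay just above wild type. The 0.51 ± 0.09 gain of the vehicle group (adjusted p = 0.00434) was followed by a drop of 0.41 ± 0.09 (-0.41, adjusted p = 0.0149).

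Hsd17b7, which reduces the ketone left by the removal of a methyl group, did the reverse. Its levels were -1.26 and -1.05 in wild type, -1.93 and -1.79 with vehicle and -1.31 and -1.14 with AP20187. Both vehicle arrays were below the other 4, which overlapped. The gene was 1.63-fold lower with vehicle than in wild type (adjusted p = 0.0135) and rose 1.56-fold with AP20187 (0.64 ± 0.17, adjusted p = 0.0262). A second, also bright Hsd17b7 probe gave -0.15 and 0.45. The rise with AP20187 passed under 10 of 12 other settings, but not with any 1 of the vehicle or AP20187 transgenic arrays left out. Over all alternatives it ran from 0.30 to 0.72. Hsd17b7 was not among the 12 members with the smallest adjusted p and is given by array because its interaction passed, a choice made after its values were seen. Nsdhl, the decarboxylase acting between Msmo1 and Hsd17b7, and Sc5d, the lathosterol oxidase, did not pass; Nsdhl came nearest with AP20187 (-0.48 ± 0.16, adjusted p = 0.0536).

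Of the uptake and transport genes, Vldlr and Npc1 were lower in transgenic muscle. Vldlr, a receptor for triglyceride-rich lipoproteins, read 5.68 and 5.75 in wild type, 5.14 and 5.19 with vehicle and 5.42 and 5.44 with AP20187. The groups did not overlap, and wild type was highest. The vehicle group was 1.46-fold below wild type (-0.55 ± 0.09, adjusted p = 0.00226), and the return of 0.26 ± 0.09 with AP20187 did not pass (adjusted p = 0.0531). A second Vldlr probe gave -0.51 and 0.14.

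Npc1, the membrane protein that passes cholesterol out of lysosomes, read 0.48 and 0.76 in wild type, -0.55 and -1.06 with vehicle and 0.04 and -0.04 with AP20187. Vehicle arrays were lowest and treated arrays intermediate. Npc1 rose 1.75-fold with AP20187 (0.80 ± 0.19, adjusted p = 0.0172) but stayed 1.54-fold under wild type (adjusted p = 0.0244). Stard4, a cytosolic sterol carrier, did not pass in muscle, and Soat1, which esterifies cholesterol for storage, was not well above background on any muscle array and was not tested there.

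Among the regulators, Srebf1, Insig2 and Insig1 passed in at least 1 muscle comparison and Srebf2 and Scap in none. Srebf1 read -0.59 and -0.79 in wild type, 0.88 and 0.60 with vehicle and -0.26 and -0.18 with AP20187. The vehicle arrays stood far above the rest and the treated arrays between the other groups. AP20187 lowered Srebf1 1.94-fold (-0.95 ± 0.14, adjusted p = 0.00372), which left it 1.39-fold above wild type (0.48 ± 0.14, adjusted p = 0.0252).

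Insig2, which retains the SCAP and SREBP complex, read 3.47 and 3.58 in wild type, 3.65 and 3.87 with vehicle and 2.93 and 3.15 with AP20187. Treated arrays were below all the others. The drop from vehicle was 1.65-fold (-0.72 ± 0.12, adjusted p = 0.00510), and a second probe gave -0.62. Insig1, its paralogue and itself an SREBP target, went the other way in small steps, from -1.70 and -1.87 through -1.56 and -1.34 to -1.28 and -1.14. Those groups did not overlap, but only the sum of the steps passed, 1.49-fold over wild type (0.57 ± 0.17, adjusted p = 0.0238).

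Srebf2 read -1.80 and -1.86 in wild type, -1.68 and -2.27 with vehicle and -1.64 and -1.39 with AP20187. The vehicle arrays lay on either side of the wild type pair and below both treated arrays, and no difference passed; the AP20187 change was 0.46 ± 0.23 (adjusted p = 0.160). Scap lay between 3.13 and 3.26 on the 6 muscle arrays, and its change with AP20187 was 0.08 ± 0.09.

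**Figure D3:**
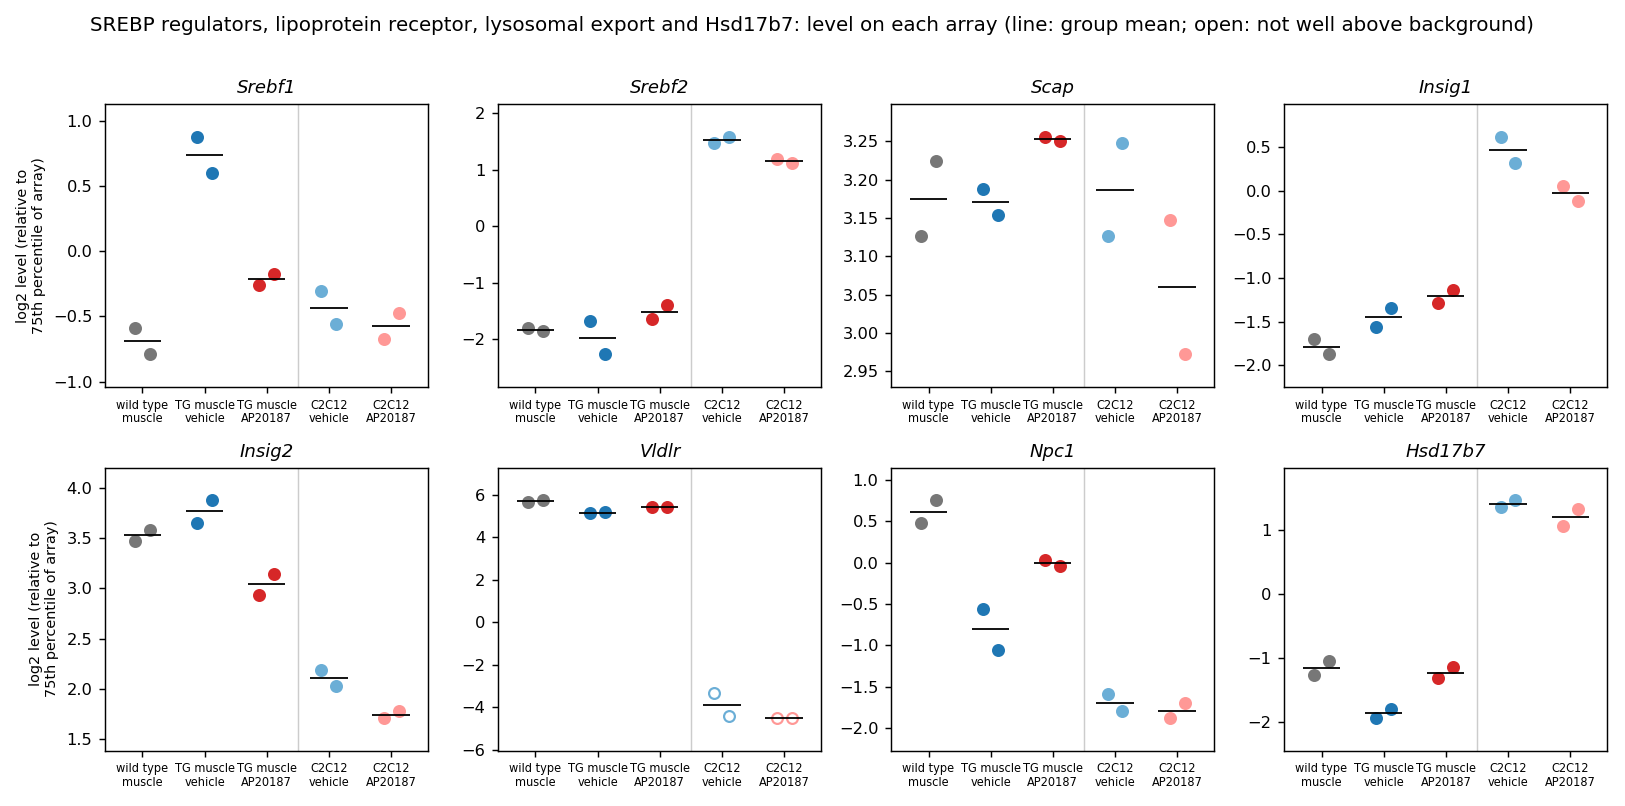
Each panel gives the log2 level of a regulator, a receptor or transporter, or Hsd17b7 on each of the 10 arrays (points), relative to the array's 75th percentile, with group means as lines and open points where the probe was not well above background. Srebf1 peaks in vehicle transgenic muscle at 0.88 and 0.60, Npc1 and Hsd17b7 dip there, and Vldlr is above background in muscle only.

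In bulk tissue, fewer cells of a type and less RNA per cell cannot be told apart. With AP20187 in transgenic muscle, 8 of 9 macrophage markers tested fell, beside 15.0% of all genes. Their summed level, as a ratio to the percentile on a linear scale, was 28.9 to 31.6 with vehicle and 16.8 to 18.2 with AP20187. Cd163 was not above background in either group. The 7 Schwann cell markers, of which Mbp and Pmp22 fell, summed to 33.7 to 38.4 and 24.3 to 28.8. The 10 adipocyte markers summed to 241 to 296 in wild type, 345 to 450 with vehicle and 268 to 403 with AP20187. Of them, 3 were higher in vehicle transgenic than in wild type muscle, beside 25.7% of all genes. With AP20187 against vehicle 1 adipocyte marker passed, as higher, while 8 of the 10 had changes below 0. Of the other lists, 3 of 7 fibroblast markers and 2 of 10 muscle fibre markers were lower with AP20187 than with vehicle, beside the same 15.0%. The 8 fibre markers with a spot on every array summed to 9441 to 9509 with vehicle and 6622 to 7598 with AP20187. None of 5 endothelial markers passed by limma's test (1 had an unadjusted p under 0.05), at sums of 45.5 to 46.0 and 16.3 to 40.4. On 1 wild type array all 4 liver markers were above background, at a sum of 3.97 against 0.173 on the other. None of the macrophage, Schwann cell, adipocyte, fibroblast, fibre and endothelial lists was at 0 in any muscle group, and the part of all these lists in the changes of the sterol genes was not tested.

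Neighbouring pathways were read against the same background, 38.3% of all genes passing for vehicle transgenic against wild type muscle and 29.3% for AP20187 against vehicle. Of 17 fatty acid genes of the SREBP pathway tested, 3 were higher and 2 lower in vehicle transgenic than in wild type muscle. Mid1ip1, an activator of acetyl-CoA carboxylase, was at 1.12 ± 0.15 (adjusted p = 0.00134), the desaturase Scd2 at 0.80 ± 0.14 and malic enzyme Me1 at -1.07 ± 0.12. Lpin1, a phosphatidate phosphatase, was at -0.54 ± 0.08. With AP20187, 2 of the 17 rose and 3 fell. Scd2 fell 3.02-fold (-1.59 ± 0.14, adjusted p = 0.000639) and Fads1, a desaturase of polyunsaturated fatty acids, 1.74-fold, while Mid1ip1 rose by a further 0.98 ± 0.15.

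In the sterol sensing and efflux list, 6 of 18 tested were higher and 2 lower with vehicle than in wild type. Gramd1b, which carries plasma membrane cholesterol to the endoplasmic reticulum, was 3.02-fold higher (1.59 ± 0.10) and rose a further 3.72-fold with AP20187 (1.90 ± 0.10, adjusted p = 0.000177). Nceh1, a cholesteryl ester hydrolase, was at 1.56 ± 0.14 with vehicle, the oxysterol receptor Nr1h3 at 0.80 ± 0.14, and the sterol hydroxylase Cyp27a1 at -1.01 ± 0.11. AP20187 raised 4 of the 18, among them Mbtps1, the protease that makes the first SREBP cleavage (0.52 ± 0.09), and Stard3, a late endosomal sterol carrier (0.48 ± 0.10), and lowered 2, Lpcat3 and Abcg1. Of 8 isoprenoid branch genes, 3 were higher with vehicle (Pdss1, Pdss2 and Coq2, all of ubiquinone synthesis, at 0.35 to 0.44), and AP20187 raised Dhdds, of dolichol synthesis, by 0.56 ± 0.11 and Ggps1, the geranylgeranyl diphosphate synthase, by 0.47 ± 0.12.

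In C2C12 cells the sterol genes leaned down with AP20187, by small amounts that passed for Mvd alone. All 25 members tested had changes below 0, where 60.5% of the 11409 genes tested did, and 24 were below the median of all genes. The members' median was -0.29 and that of all genes -0.06. By limma's test 1 member passed, Mvd, where 0.482% of all genes did, 0.316% higher and 0.167% lower; 12 members had an unadjusted p under 0.05.

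Mvd read 2.13 and 2.40 with vehicle and 1.56 and 1.42 with AP20187. The pairs did not overlap, and the fall was 1.71-fold (-0.78 ± 0.14, adjusted p = 0.0354). Without vehicle replicate 1, 3 members passed, and without vehicle replicate 2, 0 did (8 had an unadjusted p under 0.05); over all alternatives the change of Mvd ran from -0.91 to -0.36 and its adjusted p reached 0.334. Next came Pmvk, at 3.02 and 3.23 with vehicle and 2.55 and 2.52 with AP20187 (-0.59 ± 0.13, adjusted p = 0.0682).

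The other enzymes shown by array kept smaller gaps. Ebp read 5.58 and 5.89 with vehicle and 5.23 and 5.26 with AP20187, Dhcr7 1.11 and 1.19 against 0.68 and 0.83, and Tm7sf2 2.37 and 2.49 against 2.15 and 2.13. In each the pairs were apart, with changes of -0.50 ± 0.13, -0.40 ± 0.14 and -0.29 ± 0.12 (adjusted p = 0.136, 0.240 and 0.329). Idi1, at 4.73 and 4.37 against 4.49 and 4.36, and Fdft1, at 3.43 and 3.68 against 3.31 and 3.60, overlapped. Hsd17b7 read 1.35 and 1.47 against 1.07 and 1.33, with the pairs just apart (-0.21 ± 0.14).

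The regulators read lower with AP20187 too, without passing. Srebf2 read 1.47 and 1.59 with vehicle and 1.18 and 1.12 with AP20187 (-0.38 ± 0.13, adjusted p = 0.233). Insig1 read 0.62 and 0.31 against 0.05 and -0.12, and Insig2 2.19 and 2.03 against 1.71 and 1.78, at -0.50 ± 0.17 and -0.36 ± 0.13. These 3 had pairs that did not overlap. Srebf1, at -0.31 and -0.56 against -0.67 and -0.47, Scap, at 3.13 and 3.25 against 3.15 and 2.97, and Npc1, at -1.59 and -1.79 against -1.88 and -1.70, did overlap.

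In 3 members flagged spots left few values. Fdps, at 7.16 on both vehicle arrays and 7.09 with AP20187, and Hmgcs1, at 6.56 and 6.45 and then 6.29, each rest on 1 AP20187 array. Msmo1, at 5.54 and 5.64 with vehicle, had no AP20187 value, and with its flagged spots kept its change was -0.22 ± 0.12. The flags fell on bright spots: 21.4% and 17.8% of the brightest spots (the top 10% of an array) carried one with AP20187, and 1.47% and 0.674% with vehicle. Vldlr was below background in these cells and was not tested. By the headers, the vehicle arrays were in slide row 1 and the AP20187 arrays in row 2. These rows are part of the array identifiers, some of which recur, so they are as uncertain as the slide numbers. If they hold, row and treatment cannot be told apart.

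Quantile normalization, with those bright spots missing, moved the median change of all genes to 0.34 and of the members to 0.14, and 7 members then passed as higher, beside 4614 of the 11409 genes tested. With the flagged spots kept, the same normalization gave -0.02 and -0.27 and 0 members passed by limma's test, with 8 at an unadjusted p under 0.05. In all 6 scalings the members' median lay below that of all genes, by 0.17 to 0.25. The direction of the members in C2C12 is thus stated relative to the other genes, and their absolute direction flips in the quantile setting with flagged spots left out.

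**Figure D4:**
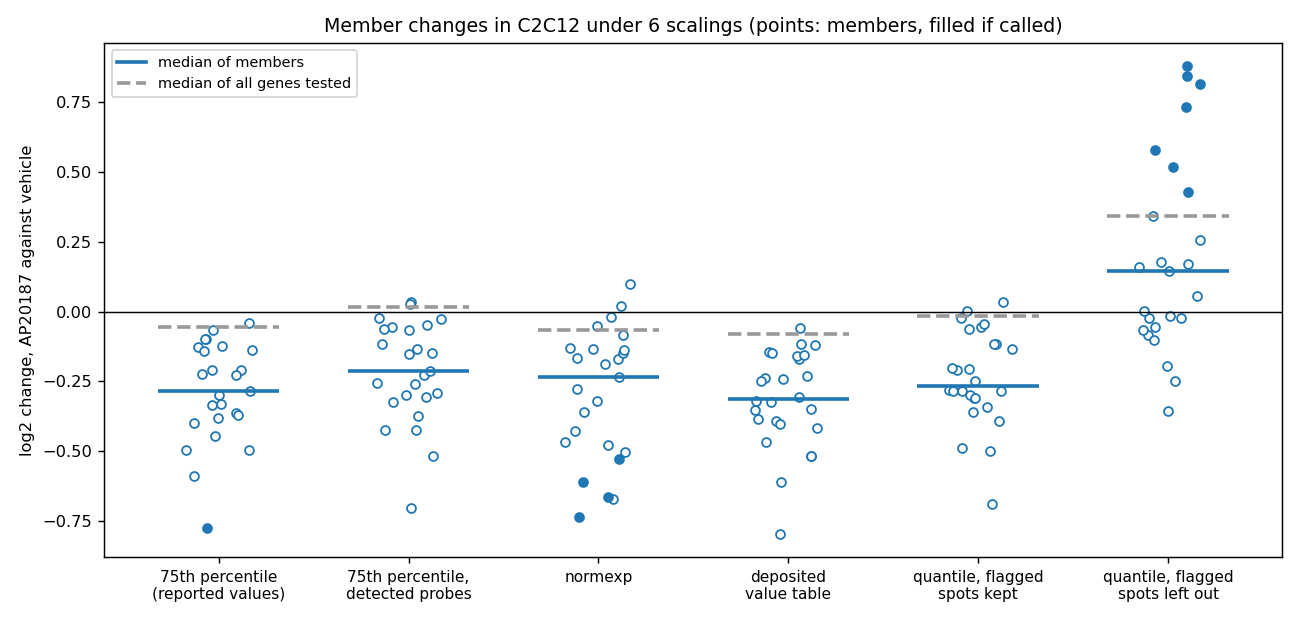
The log2 change of each tested member with AP20187 in C2C12 (points, filled at an adjusted p under 0.05) is plotted under 6 scalings of the arrays, with the median of the members as a solid line and that of all genes tested as a dashed line. The solid line is below the dashed one in every column, and only the last column, with flagged spots left out before quantile normalization, has both above 0.

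Markers of fat cells rose in the same C2C12 cells. Of the 9 adipocyte markers tested, 5 rose with AP20187, beside 0.316% of all genes. The summed level of the list was 2.54 to 2.96 with vehicle and 11.1 to 14.7 with AP20187. Adipoq, Lep and Cidec were not above background with vehicle, and Lep in neither group. Thrsp, a lipogenic gene, was the 1 of 14 fatty acid genes to pass and was at least 7.80-fold higher. The part of the adipocyte list in the sterol values was not tested. Of the 8 myotube markers, Myh3 and Mymk had flagged spots on both AP20187 arrays and could not be tested. The other 6 did not pass by limma's test, and 0 of them had an unadjusted p under 0.05. All 9 muscle fibre markers tested had changes below 0, at a median of -0.42. Of these, 2 passed as lower, beside 0.167% of all genes. The part of the fibre list in the sterol values was not tested either. None of 15 sterol sensing genes and none of 8 isoprenoid genes passed by limma's test, with 3 and 2 at an unadjusted p under 0.05.

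Whether AP20187 acted differently on the members in muscle and in C2C12 was tested as an interaction, the change in muscle minus that in C2C12. Of 26 members 2 passed, both with a higher change in muscle, beside 12.0% of all genes, 7.98% higher and 4.02% lower. Mvd, up in muscle and down in C2C12, had a difference of 1.15 ± 0.19 (adjusted p = 0.00452) and passed under every alternative run. Hsd17b7 had 0.85 ± 0.24 (adjusted p = 0.0417), which passed under 7 of 12 other settings. It passed with 1 of the 10 arrays left out and not with the others. Srebf1 (-0.81 ± 0.24), Npc1 (0.90 ± 0.29) and Srebf2 (0.84 ± 0.29) had adjusted p-values of 0.0540, 0.0711 and 0.0827. Msmo1, with no unflagged AP20187 spot in C2C12, had 0.99 ± 0.24 with flagged spots kept (adjusted p = 0.0243), when 3 members passed. With quantile normalization of those spots it had 0.89 ± 0.23 (adjusted p = 0.0381), and from the deposited table it had 1.05 ± 0.28, which did not pass (adjusted p = 0.0582). The values of Vldlr and Soat1 in this test rest on 1 source below background. Doses were given per body weight in mice and as a concentration in cells, and were not matched.

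By level, the pathway stood much higher in C2C12 cells than in muscle. Between wild type muscle and vehicle-treated C2C12, 21 of 27 members were lower in muscle and 3 higher, beside 78.8% of all 14292 genes passing, 41.2% lower and 37.6% higher. The median difference of the members was -2.15 on the log2 scale, against -0.07 for all genes. All 24 passed under every alternative that gave a value for them.

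Among the synthesis enzymes, Sqle, Lss, Msmo1 and Cyp51 had the largest differences in the main setting. Sqle read 0.22 and -0.31 in wild type muscle and 5.62 and 5.64 in C2C12 vehicle, a 51.0-fold difference (-5.67 ± 0.15, adjusted p = 9.15e-11). Lss was 21.3-fold, Msmo1 19.9-fold, Cyp51 18.5-fold and Idi1 13.7-fold lower in muscle. The sizes for Lss and Cyp51 depended on the processing. Over all alternatives Lss ran from -4.67 to -2.27, Cyp51 from -4.46 to -2.78 and Idi1 from -3.96 to -3.50. Lss read -3.36 and -3.87 in wild type muscle, where the lowest levels still above background were -4.27 and -4.30. Soat1 was not above background in muscle and at least 14.4-fold lower there, with a bound set by the dimmest spots still above background. Over all alternatives the Soat1 difference ran from -5.64 to -1.71. Insig1 was 4.75-fold lower in muscle, and Srebf2 10.3-fold by its brighter probe, while its second probe differed by -1.19 on the log2 scale.

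Against this trend, Vldlr, Npc1 and Insig2 were higher in muscle. Vldlr was not above background on any C2C12 array and at least 360-fold higher in muscle. Over all alternatives the Vldlr difference ran from 6.86 to 10.6. Npc1 was 4.95-fold higher (2.31 ± 0.21) and Insig2 2.66-fold (1.41 ± 0.12). Fdft1, Srebf1 and Scap did not pass, at -0.23 ± 0.12, -0.26 ± 0.17 and -0.01 ± 0.10. On 19 members every C2C12 array with a value exceeded every muscle array. On 3 every muscle array exceeded every C2C12 array, and on 5 they overlapped. How many of all genes were apart in this way was not counted, while 78.8% of them passed between wild type muscle and C2C12 vehicle.

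**Figure D5:**
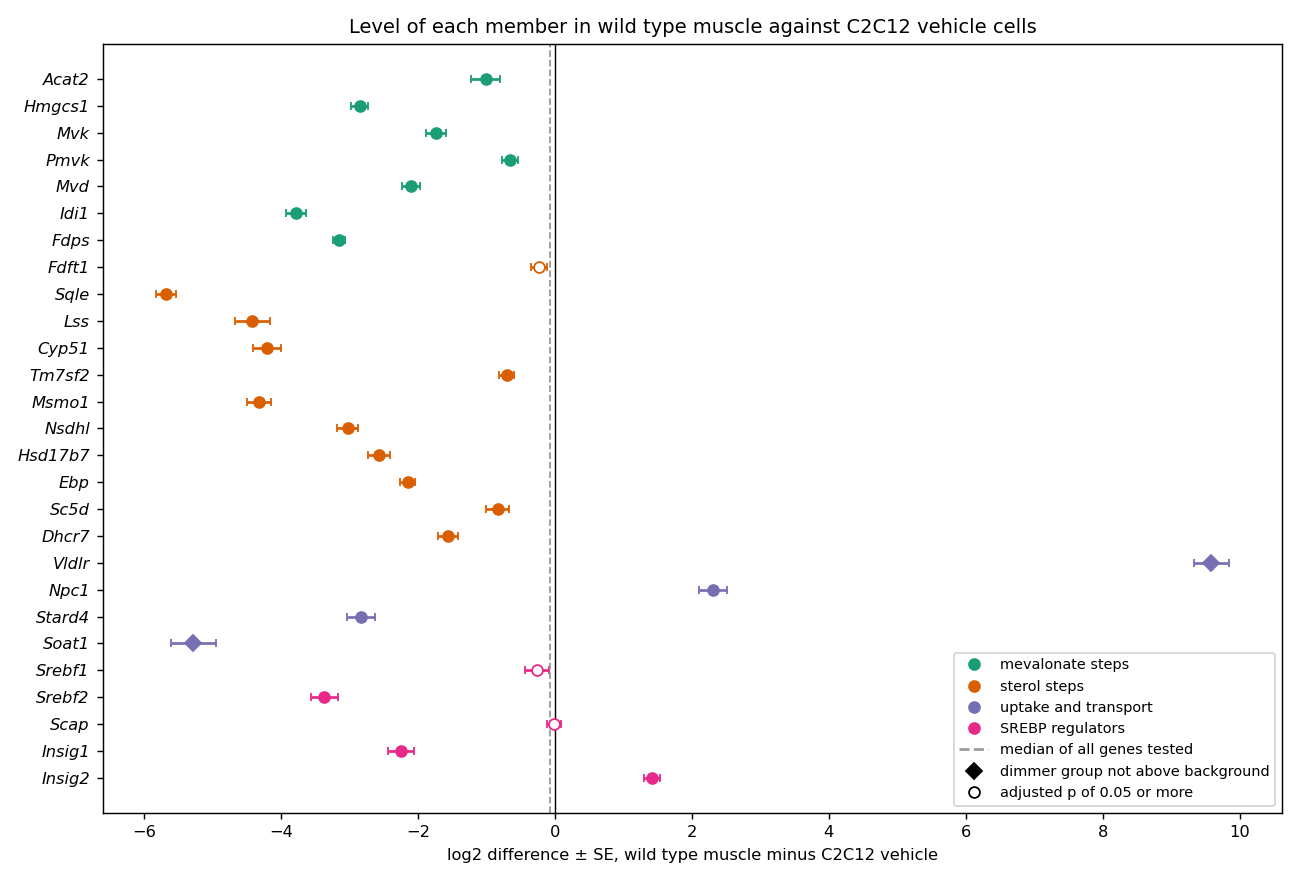
The log2 level of each member (rows, coloured by role) in wild type muscle minus that in vehicle-treated C2C12 is plotted ± SE, with 2 arrays a group; open points have an adjusted p of 0.05 or more and diamonds have 1 group not well above background. Most points lie left of 0, down to -5.67 for Sqle, while Vldlr, Npc1 and Insig2 lie right of it.

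Order of the groups by mean level put vehicle-treated C2C12 first and AP20187-treated C2C12 next for most enzymes. Among muscle groups the order varied by gene. Mvd, Msmo1, Fdft1 and Insig1 ran from wild type through vehicle to AP20187 without overlap, and Tm7sf2 and Dhcr7 ran the opposite way without overlap. Srebf1, Idi1 and Ebp were highest and Npc1, Vldlr and Hsd17b7 lowest in the vehicle group. How many of all genes were ordered in these ways was not counted. Of all genes tested, 38.3% passed for vehicle transgenic against wild type muscle and 29.3% for AP20187 against vehicle. For Dhcr7 the neighbours wild type and vehicle did not differ beyond the test, and for Fdft1 the vehicle and AP20187 groups did not. For Mvd and Msmo1 every neighbouring pair passed in the main setting. The AP20187 steps of both, and the vehicle step of Msmo1, did not pass under every alternative run. For Insig1 neither neighbouring pair passed.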

How the data were processed

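Total RNA, 150 ng a sample per the labels' protocols, was labelled with Cy3 and hybridised to single-colour Agilent arrays of 62976 spots. For each of 10 arrays the authors deposited spot intensities on a linear scale. Per the file headers and the submitters' processing notes, version 10.7.1.1 of Agilent Feature Extraction made them and had already subtracted the background. The authors also deposited a table of log2 values, whose 55681 matched lines gave array differences that correlated with those of the scanner files at 0.9998 or more; its centring is not stated, and it served as an alternative.

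From the processed intensities, control and outlier-flagged spots were removed, log2 values were set relative to the 75th percentile of each array, and spots of a probe were averaged. Probes were named through RefSeq accessions (GRCm38.p6 gene table), and 26056 probes gave 19752 symbols. Where several probes named a gene, the brightest with a value on every array was used. Genes entered a test if 1 group or more of the fit had them well above background on each of its arrays. limma 3.58.1 (R 4.3.3; lmFit, eBayes with trend) was fitted to the 6 muscle arrays, the 4 C2C12 arrays, and all 10 arrays for the interaction and for muscle against C2C12. P-values were Benjamini-Hochberg adjusted over all genes tested in a comparison, 6 comparisons were made, and an adjusted p under 0.05 passed. Scripts were tested on simulated data.

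A group not well above background on any array has only a bound. A fold given as "at least" sets the mean of the brighter group against the lowest level still well above background on the dimmer group's arrays, or the probe's own level where higher.

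Levels by array are given for the 12 members with the smallest adjusted p that passed in a treatment or genotype comparison, and for the 5 SREBP regulators; from the other pathway lists up to 4 passing genes with the smallest p were named, and a few more were named after their values were seen. The members and lists were chosen with earlier results of these data known. The precision is limited by 2 arrays a group. Alternatives were other scalings, background correction by normexp (offset 50, on the median signals, because the mean signals are not in the columns used here), filters, probe rules, variance models, a replicate block and each array left out.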

Additional observations from a re-analysis of the deposited data

Results flagged for a closer look

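For 2 members the AP20187 response differed between transgenic muscle and C2C12 cells by a test of the difference itself. Mvd had a difference of 1.15 ± 0.19 on the log2 scale (limma, adjusted p = 0.00452), with treated arrays above vehicle arrays on 2 of 2 in muscle and below them on 2 of 2 in C2C12. Hsd17b7 had a difference of 0.85 ± 0.24 (limma, adjusted p = 0.0417). Its treatments were apart in both sources, but only just in C2C12, at 1.35 and 1.47 with vehicle against 1.07 and 1.33. A second, also bright probe changed by 0.45 in muscle and -0.06 in C2C12. The difference passed under 7 of 12 other settings, and not with normexp or the mean over its probes. The Hsd17b7 difference still passed with 1 of the 10 arrays left out and missed the threshold with any of the others left out, with an adjusted p of up to 0.144 over all alternatives. Tissue, scan and dose differ between the sources and cannot be told apart from cell type.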

How the results depend on the processing

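No member that passed in the main setting changed sign under any alternative. Under every alternative that gave a value, 5 of 11 members kept passing for transgenic vehicle against wild type muscle, 3 of 12 for AP20187 in transgenic muscle, 6 of 12 for AP20187-treated against wild type muscle, 0 of 1 in C2C12, 1 of 2 for the interaction and 24 of 24 for muscle against C2C12. With arrays left out in turn the counts ran from 7 to 11, 3 to 10, 7 to 12, 0 to 3, 1 to 3 and 24 to 25; a group left with 1 array is assumed to vary like the others. For AP20187 in transgenic muscle the count was 6 from the deposited table and 7 with no filter on dim probes, which tests 19752 genes. In C2C12 it was 4 with normexp, 7 with quantile normalization, 2 with no filter, and 0 with quantile normalization and flagged spots kept (chosen after seeing the data), with the percentile over detected probes, with the deposited table, with the mean of probes and with no variance trend; with these 5 settings 8 to 11 members had an unadjusted p under 0.05. For the interaction it was 4 with normexp, 10 with quantile normalization, 1 with no filter, 5 with probes above background on every array and 1 with the mean of probes. Quantile normalization without the flagged spots reversed Ebp (0.58), Scap (0.43), Fdps (0.81), Sqle (0.84), Idi1 (0.73), Hmgcs1 (0.88) and Fdft1 (0.52) in C2C12, and Ebp (-0.88) and Sqle (-0.83) in the interaction; with those spots kept these did not pass.

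Over all genes, 55 passed in C2C12 (36 higher, 19 lower), and 360, 4689, 21, 137, 117 and 31 did with normexp, quantile normalization, the deposited table, no filter, the mean of probes and no trend; leaving out arrays gave 13 to 239. In muscle, leaving out arrays lowered 5184 to as few as 3149 for vehicle against wild type and 3964 to 1869 for AP20187 against vehicle, and 1691 to 935 for the interaction. For the interaction 1691 passed (1125 higher, 566 lower), 3179 with normexp (1622, 1557) and 3859 with quantile normalization (585, 3274). The split of 3478 higher and 1706 lower genes between vehicle transgenic and wild type muscle became 2620 and 2317 with quantile normalization and 2245 and 2732 with the percentile over detected probes, which moved the median of all genes from 0.09 to -0.08. For AP20187 in transgenic muscle, 1937 and 2027 became 2078 and 1210 with quantile normalization, and 1773 and 1064 in the deposited table. For AP20187-treated against wild type muscle, 4004 and 3067 became 3153 and 3982 with the detected probes. The causes were not tested.

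With the replicate number as a block, 13, 14, 14, 1, 2 and 21 members passed in the 6 comparisons, the last of 24 that had a value on every array. All genes passing rose to 6427, 5595 (2438 higher, 3157 lower) and 8106 in the 3 muscle comparisons and to 106 in C2C12. The samples share only a number: differences between replicates 1 and 2 correlated at 0.134 to 0.312 between muscle groups and at 0.00844 between C2C12 groups. A block for slide or scan could not be fitted, because each scan holds whole groups; AP20187 against vehicle in muscle within its scan gave 11 members. Soat1 in muscle and Vldlr in C2C12 were not well above background, which leaves only bounds for them.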

Other observations

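Second probes bear on a few members. Those of Mvk, Pmvk, Nsdhl, Insig2 and Tm7sf2 had the sign of the probe used with AP20187 in both muscle and C2C12. The second Fdft1 probe, above background on 5 of 10 arrays, gave 0.21 for vehicle transgenic against wild type muscle, where the brighter probe gave 0.56, and 1.31 with AP20187 in C2C12, where the brighter probe gave -0.10. The second Stard4 probe, above background on 2 of 10 arrays, gave -0.05 with AP20187 in muscle and 0.12 in C2C12, where the brighter probe gave 0.20 and -0.14. The second Srebf2 probe gave 0.24 for vehicle transgenic against wild type muscle and the brighter one -0.15.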
